A study of Mus musculus with 6 samples.

Results

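The abundance of the RNAs for dermatopontin, 4 small leucine-rich proteoglycans and 5 proteins of the provisional matrix was examined in the lungs of Igf1-/- and Igf1+/+ mouse embryos. The 10 genes were Dpt, Dcn, Lum, Ogn, Bgn, Fn1, Tnc, Postn, Vcan and Hapln1. They were chosen by their role in the matrix, with their log2 fold changes in this same comparison of genotypes already known, so what follows is a description of them and no independent test. Every probe set annotated with 1 of these symbols and no other was taken, which gave 18 of the 22626 mouse probe sets on the array.

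The lungs were collected at E18.5, shortly before birth, from embryos of matings between heterozygous mice on a C57BL/6J background. The Igf1-/- embryos carried the null Igf1 allele in all their cells, and the Igf1+/+ embryos of the same colony served as controls. Per the study's methods, E18.5 pups of both genotypes were delivered early by Caesarean section and assisted in breathing for a short time before dissection, so the lungs were not taken unbreathed, and any difference in breathing cannot be told apart from genotype. Each genotype was measured on 3 Affymetrix arrays, and the values are log2 expression values from RMA, a procedure that corrects background, equalises the distributions of the arrays and summarises the probes of each set. The paper describes the 3 samples of each genotype as independent biological replicates, with the RNA of 3 lungs per genotype handled separately. The labels speak of pooled lungs and of biological replicates without saying which embryos went into which array. The p-values thus measure the spread between these samples, which may be partly technical.

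The array medians lay between 6.85 and 6.89, and the labelled tissue was borne out by Sftpc, the surfactant protein C gene, which was near 14.4 on every array. Igf1 itself was measured by 3 probe sets with log2 fold changes of -0.58, -0.51 and -0.42 and adjusted p-values from 0.152 to 0.327, and at the brightest of them the groups overlapped. The labels and methods do not say where these probes lie relative to the disrupted stretch, so this does not check the labels. Igf1-/- replicate 3 stood apart through cardiac muscle genes and Igf1-/- replicate 2 through liver genes. The summed level of the 7 cardiac genes (log2 of the sum) was 13.3 in Igf1-/- replicate 3 against 11.9 to 12.2 on the other arrays, and that of the 7 liver genes was 11.6 in Igf1-/- replicate 2 against 7.99 to 9.62. The arrays also differed in the sex of the embryos: Eif2s3y, a Y-linked gene, was 7.50 in Igf1-/- replicate 1 and 7.95 in Igf1+/+ replicate 3, and between 3.46 and 3.53 on the others.

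The extracellular matrix of the fetal lung is laid down mainly by mesenchymal cells. Collagen fibrils form its scaffold, and small leucine-rich proteoglycans such as decorin and lumican bind to their surface and regulate how thick and how regular they become. A looser provisional matrix of fibronectin, tenascin-C, periostin, versican and hyaluronan surrounds cells that divide and migrate, and the link protein encoded by Hapln1 locks versican onto hyaluronan. Dermatopontin is a small tyrosine-rich protein that binds both decorin and fibronectin, and so connects these components.

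Dpt and Hapln1 were the members that fell in Igf1-/- lungs, and no member rose. A gene is said here to rise or fall when limma's moderated test gave a p under 0.10 after Benjamini-Hochberg adjustment across the 22626 probe sets. This level was met by 4 of the 18 member probe sets (1 of Dpt and 3 of Hapln1), against 126 probe sets, or 0.557%, on the whole array. At an adjusted p under 0.20, 8 of the 18 were called, all lower in Igf1-/- lungs and adding both probe sets of Ogn and both of Fn1, against 2.6% of all probe sets. The 3 arrays of 1 genotype lay wholly above the 3 of the other at 10 member probe sets (9 lower and 1 higher in Igf1-/- lungs), against 18% of all probe sets. Because the genes were picked with this contrast in view, nothing is read from the excess. Across the 18 probe sets the median log2 fold change was -0.15, with 6 higher and 12 lower. Across all mouse probe sets it was 0.03, with 13162 higher and 9464 lower.

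**Figure D1:**
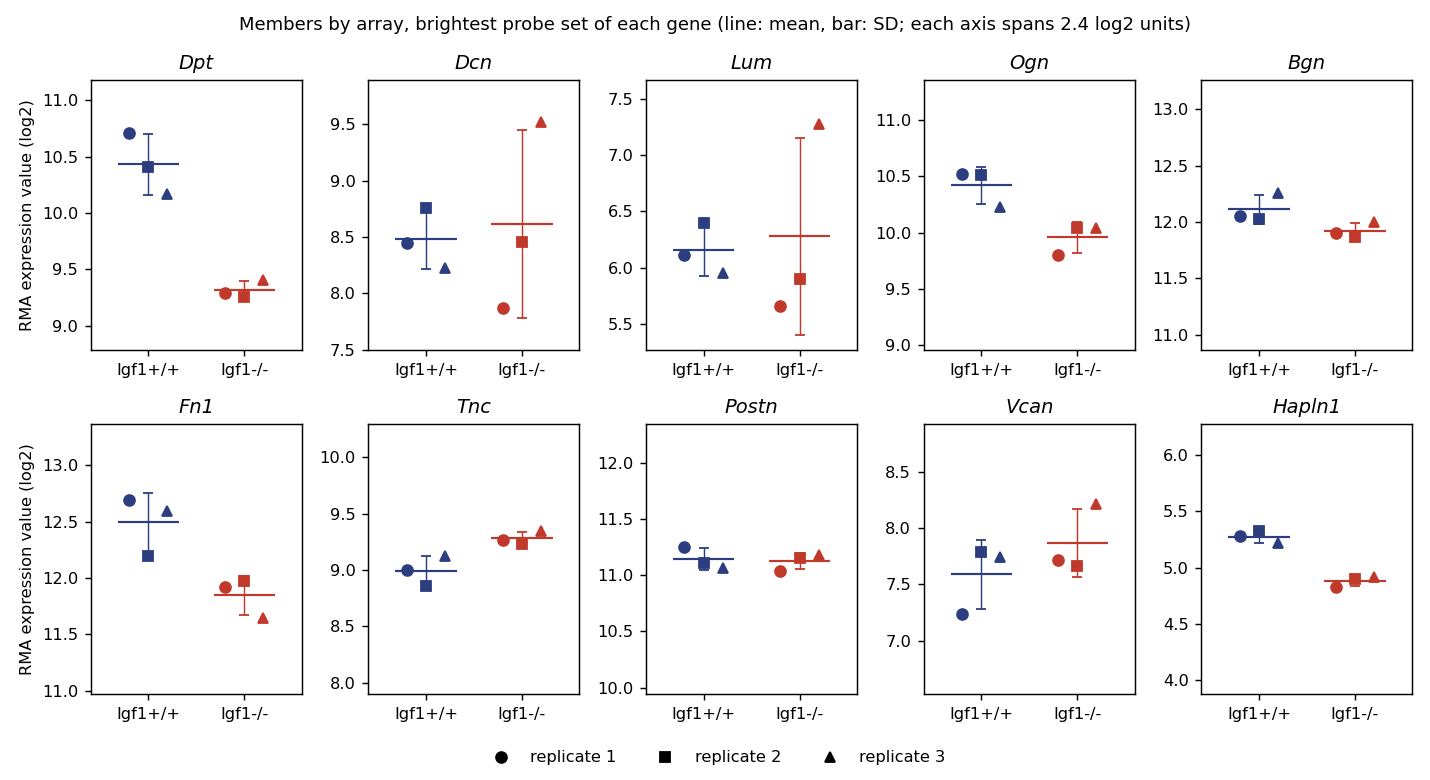
RMA expression value (log2, vertical axis) of the brightest probe set of each of the 10 genes on the 3 Igf1+/+ and 3 Igf1-/- arrays, with symbols for the replicates, a line for the mean and a bar for the SD. The genotypes are fully separated for Dpt, Ogn, Bgn, Fn1, Tnc and Hapln1 and overlap for Dcn, Lum, Postn and Vcan, and the Dcn and Lum values of Igf1-/- replicate 3 lie above all others.

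Dpt, on chromosome 1, showed the largest difference among the members. Its probe set 1418511_at read 9.29, 9.26 and 9.41 in the Igf1-/- arrays and 10.71, 10.41 and 10.17 in the Igf1+/+ arrays. The Igf1-/- arrays lay close together, and even the highest of them was well under the lowest control. Dpt was thus 2.17-fold lower, with a log2 fold change of -1.11 (SE 0.13, 95% confidence interval -1.41 to -0.82, adjusted p = 0.0134). The call was made in 6 of 6 fits that left out 1 array each, with log2 fold changes from -1.24 to -0.98 and adjusted p-values up to 0.0713, and in 8 of 8 other ways of handling the values. Without Igf1-/- replicate 3, the array with the highest cardiac gene level, the log2 fold change of Dpt was -1.16 (adjusted p = 0.0575).

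In whole lung RNA, fewer cells of a type and less RNA in each cell cannot be told apart, so marker lists of cell types that make these proteins are given beside them. The summed level of 8 adventitial fibroblast genes was 12.6 to 12.8 in Igf1-/- and 12.7 to 12.8 in Igf1+/+ lungs, and that of 13 lung mesenchyme genes was 13.3 to 13.4 against 13.4 to 13.6. None of the genes of either list rose or fell. The summed level of 7 mesothelial genes did not overlap, at 12.1 to 12.2 in Igf1-/- and 12.3 to 12.4 in Igf1+/+ lungs. Each sum leans on its brightest genes. These were Gsn and Cd34 for the adventitial list, Tcf21 for the mesenchyme list, and Krt19 and Msln for the mesothelial list. In that list 1 of 7 genes fell, Msln (mesothelin), with 9.94, 9.95 and 9.68 against 10.61, 10.47 and 10.45 (log2 fold change -0.65, adjusted p = 0.0389), while 4 of the 7 were higher. The part of the mesothelium in the lower Dpt level was not tested.

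The promoter of Dpt is shown because Dpt carried the largest change. The sequence is that of RefSeq on GRCm38.p6 (chr1:164796413-164796692, plus strand), from 250 bases before the annotated start to 30 bases after it, with the letters TATAAA in capitals where they occur on either strand.
Dpt: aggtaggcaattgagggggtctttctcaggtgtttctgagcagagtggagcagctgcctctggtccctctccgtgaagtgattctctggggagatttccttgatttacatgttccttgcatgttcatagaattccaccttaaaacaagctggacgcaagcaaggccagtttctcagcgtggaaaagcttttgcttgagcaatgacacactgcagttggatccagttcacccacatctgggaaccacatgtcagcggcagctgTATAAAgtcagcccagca
In this window TATAAA, the letters of the TATA box, stands at bases 13 to 18 after the annotated start. Neither TGANTCA (N is any base), a pattern that includes the letters bound by AP-1, nor GGAATG, those bound by TEAD factors, occurs in it on either strand. Among 32851 promoter windows of the same length, TATAAA occurs in 13.1%, TGANTCA in 7.46% and GGAATG in 13.9%. A match is a stretch of letters and no measured binding site.

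Of the 4 small leucine-rich proteoglycans, none rose or fell at an adjusted p under 0.10, and differences among them were not tested. Both Ogn probe sets were lower in Igf1-/- lungs with full separation of the groups, Bgn was a little lower, and Dcn and Lum were spread so widely within the Igf1-/- group that no difference could be resolved.

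Ogn encodes osteoglycin, also called mimecan, a keratan sulfate proteoglycan that binds collagen fibrils. Probe set 1419662_at read 9.31, 9.73 and 9.50 in Igf1-/- and 9.999, 10.15 and 9.95 in Igf1+/+ lungs. Probe set 1419663_at read 9.80, 10.04 and 10.04 against 10.52, 10.51 and 10.23. At both of them every Igf1-/- array lay under every control, and Igf1-/- replicate 1 was the lowest. The log2 fold changes were -0.52 (SE 0.11, 1.44-fold lower, adjusted p = 0.124) and -0.46 (SE 0.11, 1.38-fold lower, adjusted p = 0.144). Leaving out 1 array at a time gave adjusted p-values from 0.0879 to 0.348 for the first and from 0.0522 to 0.424 for the second, the lowest of each without Igf1+/+ replicate 3.

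The Ogn promoter is given as that of a second gene whose level was lower, for comparison with Dpt, from the same RefSeq table (chr13:49607765-49608044, plus strand), with TATAAA on either strand and GGAATG in capitals.
Ogn: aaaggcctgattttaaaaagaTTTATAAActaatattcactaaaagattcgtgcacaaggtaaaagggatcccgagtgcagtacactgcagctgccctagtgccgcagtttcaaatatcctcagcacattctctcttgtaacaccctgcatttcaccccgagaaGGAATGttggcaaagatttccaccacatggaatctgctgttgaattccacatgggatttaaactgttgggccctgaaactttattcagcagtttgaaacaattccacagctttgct
Counted from the annotated start, TATAAA lies here at bases -227 to -222 on the plus strand and at bases -229 to -224 on the minus strand, the pair overlapping, and GGAATG lies at bases -86 to -81. No TGANTCA was found. Promoter windows were matched for 7 of the 10 genes. Among the others TATAAA was found in those of Postn, at bases -26 to -21, and of Tnc. TGANTCA was found in none of the matched windows, and GGAATG in none but that of Ogn.

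Ogn lies on chromosome 13 in a row with the related genes Ecm2, Aspn and Omd. The log2 fold changes of the measured neighbours were -0.06 for the brighter and -0.01 for the dimmer probe set of Aspn (asporin) and 0.03 for Omd (osteomodulin). None of these 3 probe sets reached an adjusted p under 0.20, and the difference between Ogn and its neighbours was not tested. No probe set was annotated with Ecm2 alone, so it was not analysed here.

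Bgn encodes biglycan, a proteoglycan that carries chondroitin or dermatan sulfate chains and is closely related to decorin. Its brightest probe set, 1416405_at, read 11.91, 11.87 and 11.998 in Igf1-/- and 12.05, 12.03 and 12.26 in Igf1+/+ lungs. The groups were separated, but by a small step: the log2 fold change was -0.19 (SE 0.09, 95% confidence interval -0.38 to 0.01, adjusted p = 0.415). The other probe sets gave -0.11 (1448323_a_at, adjusted p = 0.688) and -0.12 (1437889_x_at, adjusted p = 0.610), and their groups overlapped. On all 3 probe sets Igf1+/+ replicate 3 was the highest array. Bgn is X-linked and that array was 1 of the pair with high Eif2s3y. The other of that pair, Igf1-/- replicate 1, did not stand out for Bgn. Each genotype held 1 array of the pair, so a fit with sex as a block, added after the data were seen, left the log2 fold changes as they were, with adjusted p-values of 0.432, 0.669 and 0.620.

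Dcn and Lum encode decorin and lumican and lie side by side on chromosome 10. Dcn read 7.87, 8.46 and 9.52 in Igf1-/- and 8.45, 8.76 and 8.23 in Igf1+/+ lungs. Lum read 5.66, 5.90 and 7.28 against 6.12, 6.40 and 5.95. For both genes Igf1-/- replicate 1 was the lowest and Igf1-/- replicate 3 the highest of all 6 arrays, so the Igf1-/- group enclosed the controls. The log2 fold changes were 0.14 for Dcn (SE 0.35, 95% confidence interval -0.65 to 0.93, adjusted p = 0.893) and 0.12 for Lum (SE 0.36, 95% confidence interval -0.69 to 0.93, adjusted p = 0.910).

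The direction for Dcn and Lum rested on Igf1-/- replicate 3. Without it the log2 fold changes were -0.31 for Dcn (adjusted p = 0.648) and -0.38 for Lum (adjusted p = 0.506). On this array 28 probe sets lay at least 0.7 log2 units above the highest of the other 5 arrays. They included 8 probe sets of the cardiac list, which covered 7 of its 7 genes, and the probe sets of Dcn and Lum. Nppa, the atrial natriuretic peptide gene, read 7.29 there against 4.21 to 4.44 elsewhere. The summed level of 8 tendon and skeletal muscle genes was 9.05 there against 8.49 to 8.56, a step carried mainly by Ckm, a creatine kinase that the heart also makes (8.32 against 7.45 to 7.56). Myh3, Acta1 and Mylpf were also highest on this array, by smaller steps (4.12, 5.85 and 5.24 against at most 3.86, 5.73 and 5.21). The tendon genes Tnmd and Scx and the muscle regulators Myog and Myod1 were not highest on it. The summed level of 12 lung epithelial genes was the lowest there, at 15.6 against 15.7 to 15.8. The part of cardiac or other adjoining tissue in the Dcn and Lum values of this array was not tested.

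**Figure D2:**
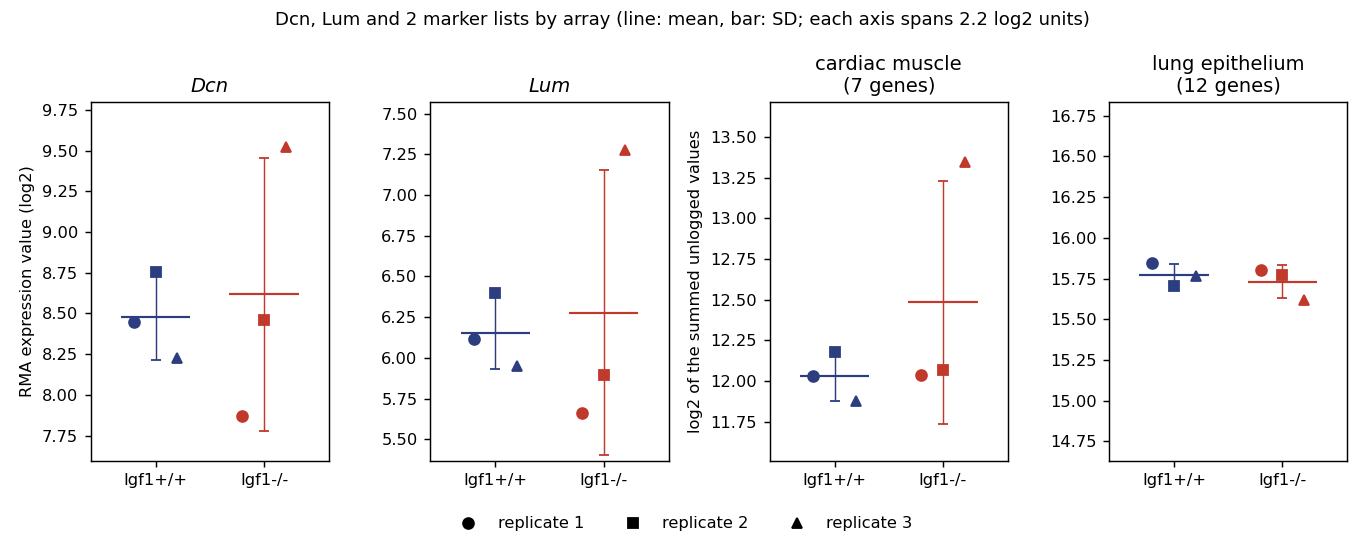
Expression value of Dcn and Lum (RMA, log2) and the log2 summed level of the cardiac muscle list (7 genes) and the lung epithelium list (12 genes) on each array, with a line for the mean and a bar for the SD of each genotype. Igf1-/- replicate 3, the red triangle, is highest for Dcn, Lum and the cardiac list and lowest for the lung epithelium list.

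The next genes along chromosome 10, Kera (keratocan) and Epyc (epiphycan), are proteoglycans of the same family. Their log2 fold changes were 0.13 and -0.03. Both genes read between 3.45 and 4.06 on every array, near the lowest values of the arrays, so the order of the arrays there is not informative.

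Among the provisional matrix genes the log2 fold changes differed in sign, but only Hapln1 was called and differences between the members were not tested. Hapln1 fell and Fn1 was lower without passing an adjusted p of 0.10, Tnc was slightly higher with separated groups, and Postn and Vcan showed no resolved difference.

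Fn1 encodes fibronectin, which cells assemble into fibrils through integrins. Probe set 1426642_at read 11.92, 11.97 and 11.65 in Igf1-/- and 12.69, 12.19 and 12.59 in Igf1+/+ lungs. Probe set 1437218_at read 10.11, 10.13 and 9.73 against 10.56, 10.49 and 10.36. The groups were separated at both, with Igf1-/- replicate 3 the lowest array. The log2 fold changes were -0.65 (SE 0.14, 1.57-fold lower, adjusted p = 0.124) and -0.48 (SE 0.12, 1.39-fold lower, adjusted p = 0.159). Without Igf1-/- replicate 3 they were -0.55 (adjusted p = 0.355) and -0.35 (adjusted p = 0.366). Fibronectin is also made by the liver. The array with the highest liver gene level, Igf1-/- replicate 2, read 11.97 and 10.13, close to Igf1-/- replicate 1. The part of liver in the Fn1 values was not tested.

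Tnc encodes tenascin-C, a protein that modulates the adhesion of cells to fibronectin and is abundant around budding airways. It read 9.26, 9.23 and 9.34 in Igf1-/- and 9.002, 8.86 and 9.12 in Igf1+/+ lungs. It was the one member whose Igf1-/- arrays all lay above the controls. The log2 fold change was 0.29 (SE 0.09, 95% confidence interval 0.09 to 0.49, 1.22-fold higher, adjusted p = 0.243).

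Postn encodes periostin, which links tenascin-C to fibronectin and collagen. It read 11.04, 11.16 and 11.18 in Igf1-/- and 11.25, 11.11 and 11.06 in Igf1+/+ lungs, and the groups overlapped throughout. The log2 fold change of -0.01 had a 95% confidence interval from -0.20 to 0.17 (SE 0.08, adjusted p = 0.959), which bounds a difference more tightly than for Dcn or Lum.

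Vcan encodes versican, the large chondroitin sulfate proteoglycan that binds hyaluronan. Its brightest probe set, 1427256_at, read 7.72, 7.66 and 8.22 in Igf1-/- and 7.24, 7.79 and 7.74 in Igf1+/+ lungs. At all 3 Vcan probe sets Igf1-/- replicate 3 was the highest array and Igf1+/+ replicate 1 the lowest, and the groups overlapped. The log2 fold changes were 0.28 (adjusted p = 0.553), 0.10 for 1427257_at (adjusted p = 0.858) and 0.05 for 1421694_a_at (adjusted p = 0.898). The latter pair changed sign when either of those arrays was left out.

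Hapln1 neighbours Vcan on chromosome 13 and encodes the link protein that stabilises the binding of versican and aggrecan to hyaluronan. Probe set 1421633_a_at read 4.83, 4.90 and 4.92 in Igf1-/- and 5.28, 5.32 and 5.22 in Igf1+/+ lungs. Probe set 1426294_at read 4.40, 4.09 and 4.15 against 5.03, 4.95 and 4.64, and 1426295_at read 4.19, 4.14 and 4.16 against 4.80, 4.82 and 4.52. All 3 separated the genotypes in the same direction.

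Hapln1 fell at each of its 3 probe sets. The log2 fold changes were -0.39 (SE 0.07, 1.31-fold lower, adjusted p = 0.0910), -0.66 (SE 0.12, 1.58-fold lower, adjusted p = 0.0894) and -0.55 (SE 0.09, 1.46-fold lower, adjusted p = 0.0695). All readings were dim, under the median of the arrays. At 1426294_at and 1426295_at the Igf1-/- readings were 4.09 to 4.40 and 4.14 to 4.19. These lie close to the values of Kera and Epyc and not far above the lowest values of the arrays (3.10 to 3.18), so the size of the fall is uncertain there. The call was made in 1 of 6 fits that left out an array, the one without Igf1+/+ replicate 3, and the adjusted p reached 0.254, 0.279 and 0.250 in the others. Hapln1 is best known from cartilage. The summed level of 17 cartilage genes was 9.89 to 9.96 in Igf1-/- and 9.81 to 9.98 in Igf1+/+ lungs, and none of the 17 rose or fell. The log2 fold change of Acan, the aggrecan gene, was -0.01 (adjusted p = 0.971). Several genes of this list were dim as well, among them Matn1 (3.68 to 3.96), Epyc (3.73 to 4.06) and Acan (5.0 to 5.3). The brightest was Chad (7.39 to 8.01), so the list says little about how much cartilage the samples held.

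**Figure D3:**
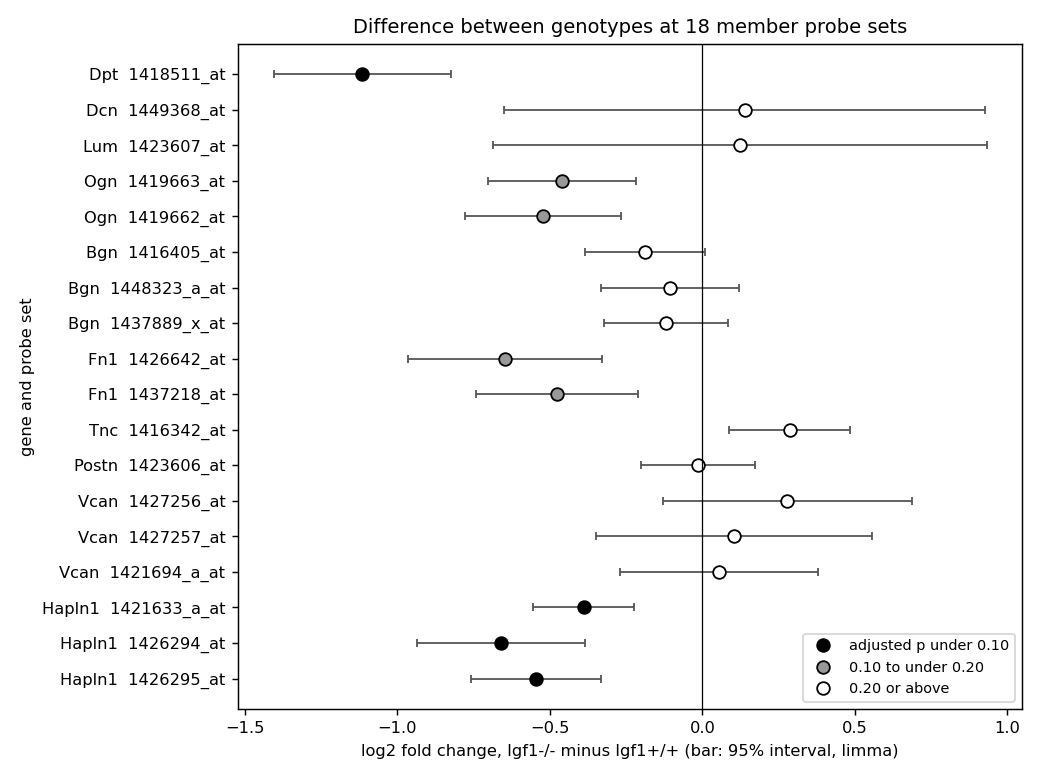
Log2 fold change (Igf1-/- minus Igf1+/+, horizontal axis) of the 18 member probe sets with 95% confidence intervals from limma, filled black at an adjusted p under 0.10 and grey from 0.10 to under 0.20. Dpt and the 3 Hapln1 probe sets are black, the Ogn and Fn1 pairs are grey, and the widest intervals are those of Dcn and Lum.

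The genes that act with the members were examined through 7 lists with 136 genes, of which 113 were measured. Taking the brightest probe set of each gene, 0 rose and 4 fell, against 74 of 12393 genes (0.597%) called in either direction on the whole array. At an unadjusted p under 0.05 there were 30 of the 113, against 12.7% of all genes, and SAM, a permutation method, called 5, against 0.734% of all genes. Of the 113 genes 60 were higher and 53 lower, with a median log2 fold change of 0.01 against 0.03 over all genes. Over all 12393 genes 7508 were higher and 4885 lower, which is the background for the list counts that follow. The genes that fell were Lyve1, Pcolce2, Chst2 and Itgb6, and Tgfbi fell at 1 of its dimmer probe sets. Without Igf1-/- replicate 3 or without Igf1+/+ replicate 2 none of the 113 was called, and without Igf1+/+ replicate 3 there were 10.

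Of the 8 other small leucine-rich proteoglycans measured, none rose or fell, and 5 were higher and 3 lower. Fmod (fibromodulin), which shares a binding region on collagen with lumican, had the lowest unadjusted p. Its brightest probe set read 9.14, 9.21 and 9.73 in Igf1-/- and 8.72, 8.9995 and 8.90 in Igf1+/+ lungs (log2 fold change 0.49, adjusted p = 0.248). All 6 Fmod probe sets were higher in Igf1-/- lungs, by 0.31 to 0.56 on the log2 scale, opposite in sign to Ogn, with adjusted p-values from 0.125 to 0.331.

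Of 22 genes for hyaluronan binding and turnover, 1 fell. Lyve1, the hyaluronan receptor of lymphatic endothelium, read 9.74, 9.71 and 9.67 in Igf1-/- and 10.46, 10.25 and 10.07 in Igf1+/+ lungs at its brightest probe set (log2 fold change -0.55, SE 0.10, adjusted p = 0.0910). The dimmer probe set gave -0.58 (SE 0.08, adjusted p = 0.0305). Itih2, a heavy chain that is transferred onto hyaluronan, was the highest of the list with a log2 fold change of 0.77 (adjusted p = 0.110). Itih2 is a liver product. It read 5.83, 6.28 and 5.69 in Igf1-/- and 4.999, 5.40 and 5.11 in Igf1+/+ lungs, with the groups separated. Its highest value was that of Igf1-/- replicate 2, the array with the highest liver gene level. The summed liver level was 8.39 and 8.90 in Igf1-/- replicates 1 and 3, against 9.39, 7.99 and 9.62 in Igf1+/+ lungs. The part of liver in the Itih2 values was not tested.

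Of 5 proteases that cleave versican and aggrecan, none rose or fell. The log2 fold change was -0.46 for Adamts1 (adjusted p = 0.180) and 0.09 for Adamts8 (adjusted p = 0.684). Of 21 other matricellular and provisional matrix genes, 14 were higher and 7 lower, 9 had an unadjusted p under 0.05 (12.7% of all genes did), and none was called at its brightest probe set. Tgfbi, a relative of periostin, read 9.83, 9.59 and 9.86 in Igf1-/- and 10.28, 10.28 and 10.49 in Igf1+/+ lungs at 1456250_x_at (log2 fold change -0.59, SE 0.10, adjusted p = 0.0681), and its brightest probe set gave -0.48 (adjusted p = 0.110). For Thbs3, a thrombospondin, the log2 fold change was 0.36 (adjusted p = 0.118). The fibrinogen chains Fga, Fgb and Fgg, clot proteins made by the liver and named here after their values were seen, read 7.04, 6.52 and 6.87 in Igf1-/- replicate 2 and between 3.93 and 4.96 on the other arrays.

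Of 26 genes for fibril collagens and their assembly, 12 were higher and 14 lower, and 1 fell. This was Pcolce2, an enhancer of the enzyme that trims procollagen, with 7.18, 7.64 and 7.38 in Igf1-/- and 8.24, 8.07 and 7.98 in Igf1+/+ lungs (log2 fold change -0.69, SE 0.12, adjusted p = 0.0794). For Plod1, a lysyl hydroxylase, it was -0.52 (adjusted p = 0.144). The median of the list was -0.02.

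Of 20 genes that build glycosaminoglycan chains, 1 fell. Chst2, a sulfotransferase that acts on N-acetylglucosamine, read 6.88, 7.27 and 7.14 in Igf1-/- and 7.71, 7.59 and 7.74 in Igf1+/+ lungs (log2 fold change -0.59, SE 0.11, adjusted p = 0.0825). For Csgalnact1, which starts chondroitin sulfate chains, it was -0.45 (adjusted p = 0.119). Of 11 receptors and assembly factors for fibronectin and tenascin, 1 fell. Itgb6, the epithelial integrin chain that pairs with the alpha v chain to bind fibronectin and tenascin-C, read 8.25, 7.86 and 7.64 in Igf1-/- and 9.08, 9.07 and 8.55 in Igf1+/+ lungs (log2 fold change -0.98, SE 0.18, adjusted p = 0.0896). For Itga8, a mesenchymal integrin chain for the same ligands, it was -0.36 (adjusted p = 0.336).

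**Figure D4:**
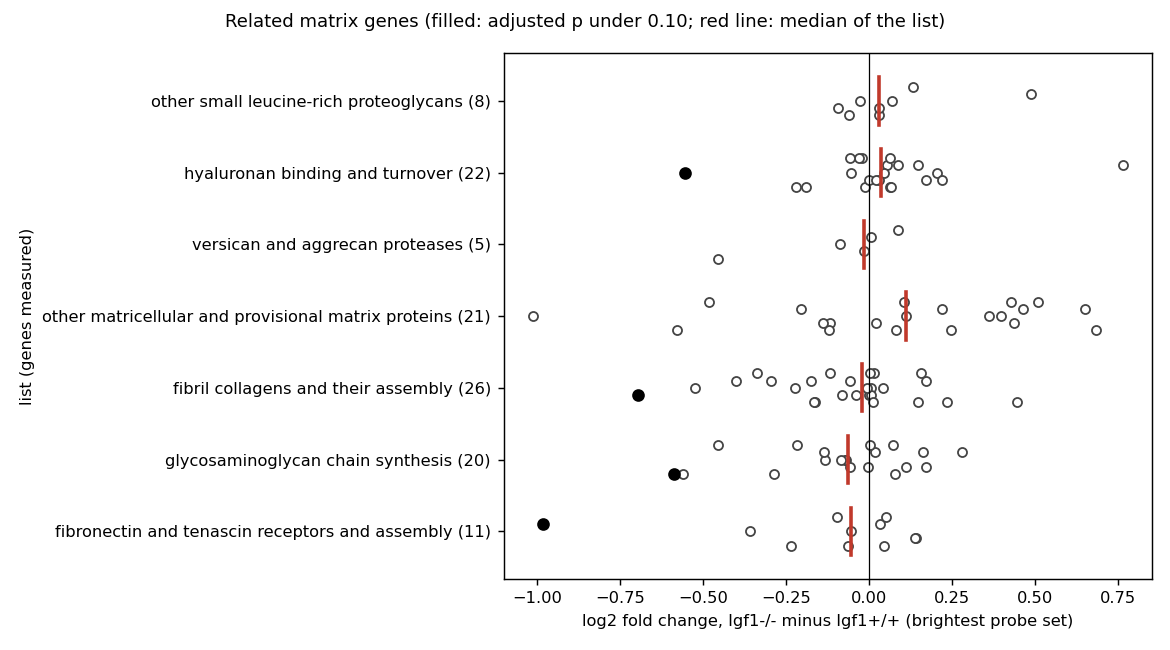
Log2 fold change (Igf1-/- minus Igf1+/+, horizontal axis) of the brightest probe set of each of 113 genes in 7 related lists, filled where the adjusted p was under 0.10, with a red line at the median of each list. The 4 filled points, Lyve1, Pcolce2, Chst2 and Itgb6, lie below 0, and the medians of the lists lie between -0.06 and 0.11.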

How the data were processed

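Genotype and replicate number of the 6 lung arrays were taken from the labels. The authors deposited log2 expression values made by RMA over 12 arrays, 6 of lung and 6 of cochlea, a step that was not repeated and whose version no source used here gives. The 64 control probe sets were left out. With R 4.3.3 and limma 3.58.1, genotype was fitted as the only term over 22626 probe sets, with empirical Bayes variances and Benjamini-Hochberg adjustment. Cell type and pathway levels are log2 of summed unlogged values at each gene's brightest probe set. The alternatives were quantile normalization, median centring, a block for the replicate number, leaving out dim probe sets, a variance trend with robust estimates, array weights, SAM over 10 splits, each array left out and, chosen after seeing the data, sex as a block. The members and lists were chosen with earlier results of these data known. Related genes are named where called, or where they had the lowest unadjusted p of their list. The fit was tested on simulated data. The precision is limited by 3 arrays per genotype.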

Additional observations from a re-analysis of the deposited data

How the results depend on the processing

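The number of mouse probe sets with an adjusted p under 0.10 (126) was 204 with a variance trend and robust estimates and 628 with array weights, and ranged from 45 (without Igf1-/- replicate 3) to 710 (without Igf1+/+ replicate 3) when 1 array was left out. Under 0.20 (588) it was 2325 with array weights and 1279 with SAM, and ranged from 88 to 2888. Member probe sets under 0.10 (4) numbered 2 with the replicate number as a block, 1 without dim probe sets, which leaves out all of Hapln1, and 8 with array weights, and ranged from 1 to 6. Under 0.20 (8) they numbered 5 without dim probe sets, and ranged from 1 (without Igf1-/- replicate 3) to 9. Related genes that were called (4) numbered 13 with array weights and 1 with sex as a block, and ranged from 0 to 10. With 1 array left out, the log2 fold changes ranged from -0.31 to 0.51 for Dcn, -0.38 to 0.43 for Lum, -0.052 to 0.041 for Postn, -0.12 to 0.22 for Vcan 1427257_at and -0.12 to 0.15 for Vcan 1421694_a_at. Reversed signs were those of Dcn (-0.31) and Lum (-0.38) without Igf1-/- replicate 3, of Vcan 1427257_at (-0.06) and 1421694_a_at (-0.02) without that array and (-0.12 for both) without Igf1+/+ replicate 1, and of Postn with quantile normalization (0.0042), without Igf1-/- replicate 1 (0.028) and without Igf1+/+ replicate 1 (0.041). Arrays with the same number did not deviate together (correlations of -0.04, -0.23 and -0.14), so the labels' numbers were not taken as pairs. The cause of these shifts was not tested.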
